A study of Mus musculus with 3 samples.

Results

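Genes whose level was high on days 1 to 3 of reprogramming, and low both before and after, were described here in mouse embryonic fibroblasts. The 12 genes were chosen by their own levels in the untransfected time course, out of 50507 genes in the count table. For each day the counts of the 3 replicates were summed and divided by the summed totals, which gives CPM, the usual scale of counts relative to the library total. A gene was kept if its mean over Day01 to Day03 was at least 100 CPM, at least 1.8 times the Day00 level and at least 1.8 times the mean of Day05 and Day06, and if its name was not that of a mitochondrial transcript or of a -ps pseudogene. Of 1662 genes at that level, 136 passed the fold over Day00, 136 passed the fold over the late days, and 12 passed both. Day04, nt, Mock and siRNA libraries played no part in the choice. The time course values below are therefore a description, and no test was run on them.

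All libraries came from wild-type primary fibroblasts of the BL6 strain at passage 2. The cells had been transduced with tet-STEMCCA lentiviruses, from which doxycycline switches on c-Myc, Klf4, Oct4 and Sox2, together with rtTA, the activator that doxycycline needs. Reprogramming medium held doxycycline, chiron, Alk5i (an inhibitor of TGFb signalling), ascorbic acid and LIF. Cells of the time course, Day00 to Day06, were re-plated but received no transfection. In the screen, cells were reverse transfected with a pool of siRNAs against 1 of 33 genes, with a non-targeting siRNA (nt) or with no siRNA (Mock), and were then re-plated and induced; their RNA was taken on day 6. Each of the 3 GEO samples is a sequenced pool of 1 replicate, and the condition of every library was read from its column name. The factors were delivered by virus to a bulk culture, so that each level is a mean over cells that may differ in how much of them they carried.

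Several of the 12 genes belong to known systems. Hmox1 (heme oxygenase 1) breaks heme down to biliverdin, carbon monoxide and iron, and is a classical target of the stress factor NRF2 and of its opponent BACH1. Slc48a1 is a heme transporter that passes heme from endosomes and lysosomes to the cytosol, upstream of that enzyme. Rn7sk is 7SK, a nuclear RNA made by RNA polymerase III that, with LARP7, MEPCE and HEXIM proteins, holds the elongation kinase P-TEFb in an inactive state. Adm encodes adrenomedullin, a secreted peptide that widens vessels and is induced in low oxygen. Sprr2b encodes a small proline-rich protein of the cornified envelope of skin, Tspan5 a membrane tetraspanin that accompanies the protease ADAM10, Naa35 a subunit of the NatC complex that acetylates protein N-termini, and Fam104a a nuclear cofactor of the unfolding enzyme VCP. AI506816 is a transcript with no coding annotation, Gm24447 a further copy of 7SK, and Gm12537 and Gm5210 processed pseudogenes.

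Of 129 libraries, 127 with at least 10000 counts were used, namely 21 from the time course, 98 from siRNAs, 5 from Mock and 3 from nt. Mock columns share a name within a replicate, and the labels do not say whether they are separate transfections. Totals ran from 29656 to 235292 counts, and from 38784 to 167426 in the time course, so that 100 CPM stand for few counts: the 12 genes had 106 to 666 counts each over all 21 time course libraries. Summed fibroblast markers (9 genes) stood at 3935 to 5592 CPM on Day00 and at 1702 to 2345 CPM on Day01 to Day03. Most of that difference lay in Col1a1, Col1a2 and Postn, while Dcn went from 22.0 CPM on Day00 to 164 CPM on Day03 and Thy1 stood at 313 CPM on Day00 and 351 CPM on Day01. Macrophage markers (6 genes) summed to 115 to 201 CPM on Day00 and 29.5 to 109 CPM on Day01 to Day03; on Day00 Lyz2 made up nearly all of it (136 CPM), while Ptprc, C1qa, Csf1r and Tyrobp had no count. Ptprc was highest on Day01, and C1qa had no count throughout. Endothelial markers (4 genes) never passed 52.7 CPM in the time course, and pluripotency markers (7 genes) never 61.5 CPM. Epithelial markers (8 genes) summed to at most 46.6 CPM in each library of Day00 to Day04 and to 71.5 to 259 CPM on Day05 and Day06. Mitochondrial transcripts took 112770 CPM on Day01 and 211421 CPM on Day03. The part of these shifts in the levels below was not tested, and in bulk RNA a change in the number of cells of a type cannot be told apart from a change in RNA per cell. Over the 33 siRNA targets, 369 counts were found in the targets' own libraries where 391 were expected from the other transfected libraries, or 0.943 times expectation (95% interval for counting error only, 0.849 to 1.04). Of the 33 targets 23 were under expectation and 8 had 0 counts, and Hat1 (106 counts) and Set (58 counts) made up much of the sum. In the libraries named for them, Wdr5 gave 7 counts against an expectation of 7.69 counts and Brca1 gave 4 against 3.48. A named siRNA below means libraries of that name. These day 6 counts do not show that a difference from nt follows a lower level of the target. Other measurements of the targets by the study are not reported here.

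Together the 12 genes took 819 CPM on Day00, 2097 on Day01, 1913 on Day02 and 2801 on Day03, then 919 on Day04, 746 on Day05 and 958 on Day06. Every library of Day01 to Day03 held between 1662 and 3403 CPM of them, and every other library of the time course between 644 and 1191 CPM, so that these summed levels did not overlap. That separation follows from the choice of the genes. Day04 lay under each of the 3 earlier days for 10 of the 12 genes, and under Day00 for 3 of them. As the genes were taken for high values on those 3 days, nothing is read from the 10. The highest day was Day03 for 7 genes (Hmox1, Slc48a1, Sprr2b, Tspan5, Adm, Gm24447 and Rn7sk) and Day01 for 5 (AI506816, Fam104a, Gm12537, Naa35 and Gm5210). Between Day05 and Day06 the level was higher on Day06 for 8 of the 12.

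**Figure D1:**
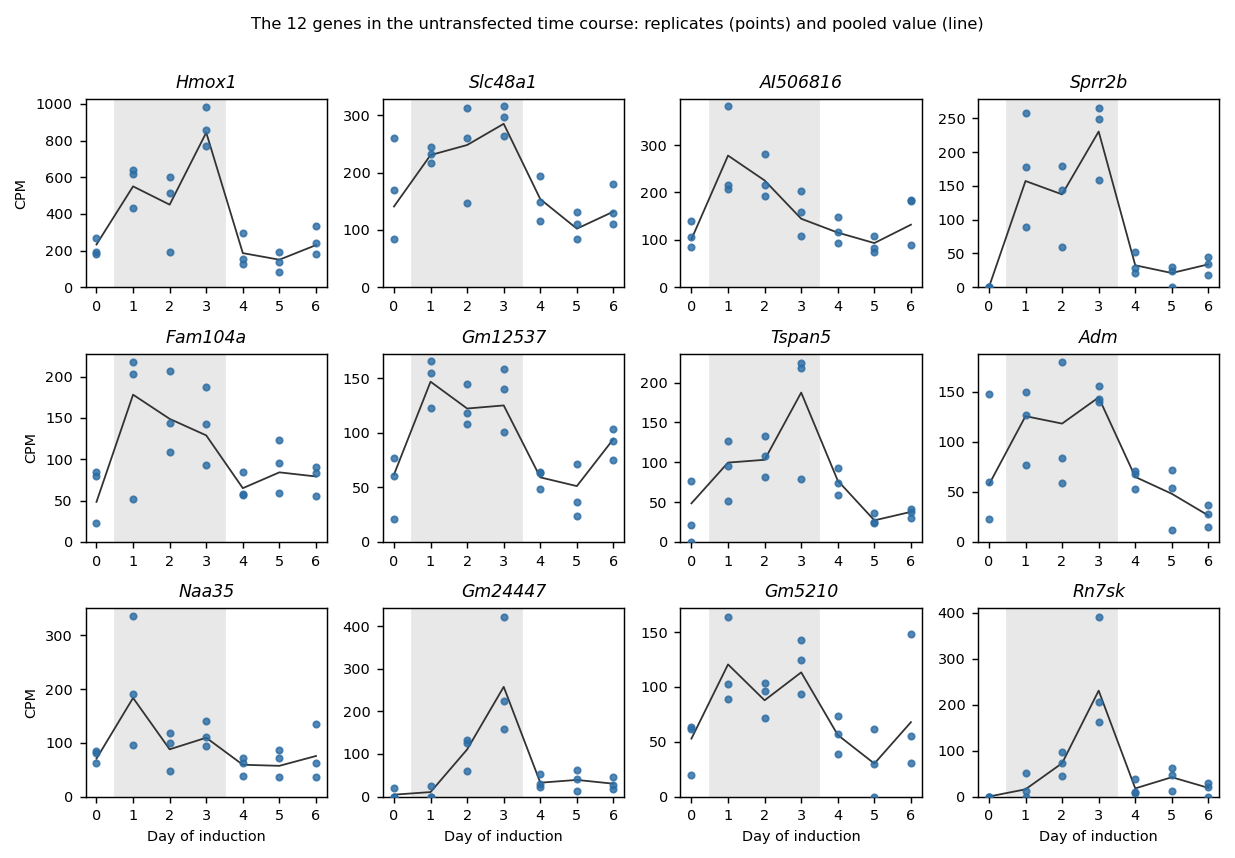
Each panel plots 1 gene: CPM on the y axis (from 0, scaled per gene) against the day of induction, with a point for each of the 3 replicates and a line through the pooled value; the grey band marks Day01 to Day03. Hmox1, with a mean of 615 CPM over the band, had the highest level of the 12, Sprr2b had no count on Day00, and Rn7sk and Gm24447 stayed low until Day02.

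Hmox1 (ENSMUSG00000005413, GRCm38 chromosome 8, 75093621 to 75100589, plus strand) was the most abundant of the 12. Its 3 libraries read 181, 191 and 269 CPM on Day00. They read 619, 641 and 432 CPM on Day01, 193, 517 and 603 CPM on Day02, and 859, 982 and 769 CPM on Day03. Apart from 1 Day02 library, every library of days 1 to 3 lay above the highest of the other days used in the choice, 332 CPM. On Day04 the libraries were back at 126 to 295 CPM, 0.798 times the Day00 level after pooling. The mean over Day01 to Day03, 615 CPM, was 2.64 times Day00 and 3.23 times the late mean.

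Slc48a1 (ENSMUSG00000081534, chromosome 15, 97778520 to 97792692, plus strand), the heme transporter, ran lower than Hmox1 and with a flatter course. Its pooled level was 141 CPM on Day00, 231, 248 and 285 CPM on Day01, Day02 and Day03, and 154, 102 and 132 CPM on Day04 to Day06. A single Day00 library reached 261 CPM, the others 169 and 84.5 CPM, so that 4 of the 9 libraries of days 1 to 3 lay above all others. At 1.81 times Day00 the gene sits just inside the threshold, and its exons overlap those of Hdac7 on the opposite strand.

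Other genes of heme and iron handling were read from a list drawn up after the 12 were known. Of its 11 genes with counts, 5 were at 100 CPM or more over days 1 to 3, and 4 of the 5, the pair above included, were higher then than both on Day00 and late, beside 29.4% of all genes at that level. The pair has that shape by its choice, so only Fth1 and Ftl1 add to the count. The ferritin subunits, which store iron, stood at 2685 CPM (Fth1, 1.28 times Day00) and 1818 CPM (Ftl1, 1.20 times Day00). Tfrc, the transferrin receptor, was the exception, at 358 CPM over days 1 to 3 and at 696 CPM over the late days. Biliverdin reductases, which act after the oxygenase, were near the floor, at 16.0 CPM for Blvra and 15.5 CPM for Blvrb.

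Among 12 NRF2 and BACH1 targets of a second such list, 8 were at that level and 4 of the 8 (50%) were higher over days 1 to 3 than both on Day00 and late, beside 29.4% of all 1662 genes at that level; Hmox1 itself is among the 4. Gclm, a subunit of the first enzyme of glutathione synthesis, came closest to the rule without passing it: 269 CPM on Day00, 673 CPM over days 1 to 3 and 419 CPM late, a late fold of 1.61. Nqo1, a quinone reductase, stood at 101 CPM on Day00 and 252, 176 and 113 CPM on the following days. Slc7a11, the cystine transporter, had 0 counts on Day00 but did not decline afterwards, with 147 CPM over days 1 to 3 and 165 CPM late. Me1, malic enzyme, was lower, at 352 CPM on Day00 and 106 CPM over days 1 to 3. The transient shape of Hmox1 was thus found in some of these targets and not in others; the list was chosen with the result known and supports nothing by itself.

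Sprr2b (ENSMUSG00000050092, chromosome 3, 92316620 to 92318085, plus strand) gave the cleanest separation. It had 0 counts in the 3 Day00 libraries. On Day01 the libraries read 258, 177 and 89.0 CPM, on Day02 145, 59.0 and 180 CPM, and on Day03 265, 158 and 248 CPM. From Day04 to Day06 no library passed 52.7 CPM. All 9 libraries of days 1 to 3 lay above the highest of Day00, Day05 and Day06, 45.2 CPM. Against a floor of 3 counts over the Day00 libraries the mean of 175 CPM was at least 13.2-fold higher, and it was 6.37 times the late mean.

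Few other small proline-rich genes were seen. Of the 14 listed, only Sprr2b reached 100 CPM. Sprr2a1, Sprr2a2 and Sprr2a3, which share 37.1% to 43.9% of the 21-base words of the Sprr2b 3′ end (its last 400 bases), together had 4.40 CPM on Day00, 31.4, 26.7 and 58.6 CPM on Day01 to Day03 and 90.5 CPM on Day06. Their highest day was thus Day06, not Day03. Sprr2k ran opposite to Sprr2b, with 114 CPM on Day00 and 15.7 CPM on Day01. A read from the shared stretch could be assigned to any of the Sprr2a genes or to Sprr2b, so the split between them is uncertain.

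The promoter of Sprr2b is shown because it is the one of the 12 with sites of more than 1 kind. The RefSeq table for GRCm38.p6 held the promoters of 6 of the 12 genes (AI506816, Adm, Fam104a, Naa35, Sprr2b and Tspan5), and the 250 bases before the start were searched on both strands for AP-1 (TGACTCA), the antioxidant response element (TGACNNNGC), the E-box (CACGTG), the octamer bound by Oct factors (ATGCAAAT), the CCAAT box (CCAAT), the hypoxia response element (ACGTGC) and E2F (TTTGGCGC). The E-box and the hypoxia element can overlap in ACGTG, and AP-1 and the antioxidant element both begin with TGAC. Sprr2b, at chr3:92316455-92316704 on the plus strand, held AP-1 at 195 bases and the octamer at 108 bases before the start, both in capitals and both lying on the opposite strand, so that they read TGAGTCA and ATTTGCAT here. Of all 32851 promoters of that length 4.46% held AP-1 and 1.6% the octamer. No E-box (6.02% of all), CCAAT box (33.8%), hypoxia element (4.92%) or E2F letters (0.417%) were in any of the 6.
Sprr2b: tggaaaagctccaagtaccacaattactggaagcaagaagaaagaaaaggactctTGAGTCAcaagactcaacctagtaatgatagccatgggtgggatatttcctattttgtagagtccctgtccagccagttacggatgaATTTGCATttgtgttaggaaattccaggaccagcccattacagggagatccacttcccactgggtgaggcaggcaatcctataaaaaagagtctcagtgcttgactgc
A match is a description of letters only. Hmox1, Slc48a1, Gm12537, Gm24447, Gm5210 and Rn7sk had no entry.

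Tspan5 (ENSMUSG00000028152, chromosome 3, 138742195 to 138907905, plus strand) and Adm (ENSMUSG00000030790, chromosome 7, 110627661 to 110629820, plus strand) both had their highest day on Day03. Tspan5 read 0, 21.2 and 76.9 CPM in the Day00 libraries and 219, 79.2 and 225 CPM on Day03. On Day05 and Day06 its 6 libraries lay between 23.9 and 41.4 CPM, under all 9 of days 1 to 3. Its mean of 130 CPM was 2.69 times Day00 and 4.02 times the late mean. The Day04 level, 76.8 CPM, was 0.591 times that mean, a share second among the 12 to that of Slc48a1 (0.603).

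Adm read 156, 143 and 140 CPM on Day03, and 15.1, 37.0 and 27.6 CPM on Day06. Its Day00 libraries disagreed, at 60.2, 148 and 23.1 CPM, so that only 3 of the 9 libraries of days 1 to 3 lay above all others. Adrenomedullin acts through the receptor Calcrl with Ramp proteins. Calcrl had 5 counts over the whole time course, Ramp1 had 2, and Ramp3 stood at 10.8 CPM over days 1 to 3, and Ramp2 had 0, which leaves the receptor at or near the floor in the cells where the ligand was counted. The Adm promoter, at chr7:110627407-110627656 on the plus strand, held 1 match to the antioxidant response element, 58 bases before the start and in capitals; 10.2% of all promoters held that motif.
Adm: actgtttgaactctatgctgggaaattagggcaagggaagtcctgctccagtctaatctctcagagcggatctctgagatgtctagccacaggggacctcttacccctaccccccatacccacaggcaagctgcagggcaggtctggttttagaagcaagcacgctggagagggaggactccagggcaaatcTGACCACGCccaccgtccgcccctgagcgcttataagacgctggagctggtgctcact

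The 7SK genes had a course of their own. Rn7sk (ENSMUSG00000065037, chromosome 9, 78175303 to 78175633, minus strand) had 0 counts on Day00, and its libraries read 390, 206 and 163 CPM on Day03 after 96.3, 44.3 and 72.0 CPM on Day02. Gm24447 (ENSMUSG00000065911, chromosome 15, 93234363 to 93234700, plus strand) had 1 count on Day00 and 2 on Day01, and read 422, 158 and 225 CPM on Day03. By counts its days 1 to 3 were 31.1-fold above Day00. The interval of 5.45 to 1240 covers counting error only. It is no test, since the same days chose the gene, by a ratio of mean CPM of 28.7. For both genes Day01 was thus still low, and the high mean of days 1 to 3 rests on Day02 and Day03. By Day04 Rn7sk was at 17.7 CPM and Gm24447 at 32.5 CPM.

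Counts of the pair cannot be told apart over most of their length. In GENCODE the first 241 bases of the 331-base Rn7sk and of the 338-base Gm24447 are the same, and the sequences part after that. Bases 172 to 281 of both transcripts are shown across that point, with the bases after it in capitals; they lie at chr9:78175353-78175462 on the minus strand and at chr15:93234534-93234643 on the plus strand.
Rn7sk: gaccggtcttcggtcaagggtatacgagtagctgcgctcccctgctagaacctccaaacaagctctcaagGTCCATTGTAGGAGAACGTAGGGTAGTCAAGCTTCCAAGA
Gm24447: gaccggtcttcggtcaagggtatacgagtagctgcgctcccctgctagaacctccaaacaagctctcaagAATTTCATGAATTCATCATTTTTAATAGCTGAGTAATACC
Of 317 positions aligned between Rn7sk and Gm24447, 283 (89.3%) were identical, and a further 35 positions were gaps. Of the 21-base words of Gm24447, 69.5% are also in Rn7sk. Gm26315, Gm26035, Gm24146 and Gm23973 are further copies, which share 29.9% to 69.1% of the words of Rn7sk.

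Summed over the 6 copies, 7SK stood at 17.6 CPM on Day00, 47.2 on Day01, 286 on Day02 and 824 on Day03. It was at 79.8 CPM on Day04, 120 on Day05 and 86.7 on Day06. The 3 replicates read 1249, 650 and 699 CPM on Day03, and the highest library of any other day read 337 CPM, so that every replicate had its highest day on Day03. Of the proteins that bind 7SK, Larp7 was at 105, 68.7 and 66.4 CPM on Day01 to Day03, and Mepce and Hexim1 stayed at or under 36.7 CPM. Cdk9, the kinase of P-TEFb, was at 35.2 CPM on Day00 and 66.4 CPM on Day03. Its partner Ccnt1, cyclin T1, was the other gene of this list of 8 at 100 CPM or more, at 225 CPM on Day00, 224 CPM over days 1 to 3 and 107 CPM late. Other RNAs made by RNA polymerase III were near the floor, with 7SL never over 26.2 CPM and Rmrp and Rpph1 together never over 3.82 CPM. In its usual form 7SK has no poly(A) tail, on which these libraries were primed; how its reads arose was not tested.

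**Figure D2:**
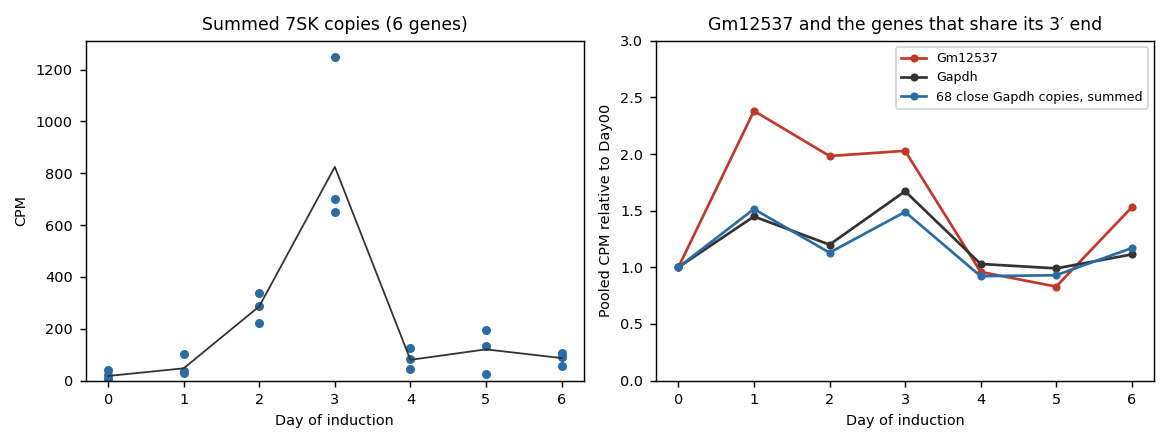
Left, summed CPM of the 6 annotated 7SK copies against the day of induction, with a point per replicate and a line through the pooled value; Day03, at 650 to 1249 CPM, lies above every other day. Right, pooled CPM relative to Day00 for Gm12537, for Gapdh and for the sum of 68 close Gapdh copies; the copies together reached 1.38 times and Gm12537 2.13 times their Day00 level over days 1 to 3.

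Gm12537 (ENSMUSG00000095042, chromosome 4, 57370953 to 57371954, minus strand) is a processed copy of Gapdh, the glycolytic enzyme. It read 155, 123 and 165 CPM on Day01 and between 21.2 and 76.9 CPM in the libraries of Day00 and Day05. On Day06 it read 75.4, 92.4 and 104 CPM, the last of them above the lowest library of days 1 to 3 (101 CPM). All of the 21-base words in its last 400 bases recur in other transcripts, and 145 genes share at least 20% of them. Reads of Gapdh mRNA could therefore be counted here, and the level is uncertain. Gapdh itself was at 264 CPM on Day00 and 380 CPM over days 1 to 3, 1.44 times Day00 and 1.37 times the late mean. The 68 copies that share at least 50% of the words summed to 5019 CPM on Day00 and 6913 CPM over days 1 to 3, 1.38 times Day00. Gm12537, at 2.13 times Day00, lay above both. Gm5210 (ENSMUSG00000098190, chromosome 15, 8917798 to 8929171, minus strand) shares 21.3% of its words with Gm10358 and Gm4609. It was the least separated of the 12: 1 of its 9 libraries of days 1 to 3 lay above all others, since a Day06 library read 148 CPM.

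The remaining 3 genes were highest on Day01. AI506816 (ENSMUSG00000105987, chromosome 5, 23698296 to 23712667, minus strand), with no coding annotation, read 206, 382 and 216 CPM on Day01 and after pooling 225, 145, 115 and 93.2 CPM on Day02 to Day05, lower on each day than the last, with 132 CPM on Day06. It shares 29.2% of its 3′ words with the lincRNA Gm42031. Fam104a (ENSMUSG00000041629, chromosome 11, 113661319 to 113684155, minus strand) read 51.6, 218 and 203 CPM on Day01, and its Day01 spread covered most of its range. Naa35 (ENSMUSG00000021555, chromosome 13, 59585259 to 59635922, plus strand) read 335, 95.4 and 191 CPM on Day01 and 48.2 to 141 CPM on the next 2 days. The library at 335 CPM, the shallowest of the time course, held 13 counts of Naa35, beside 7 and 15 in the others of Day01. The partners of Naa35 in NatC were flatter, with Naa30 at 44.1 CPM and Naa38 at 104 CPM over days 1 to 3, 0.911 and 1.08 times Day00. Exons of Fam104a overlap those of Cog1, and exons of Naa35 those of Golm1, on the opposite strand.

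Naa35 was the other gene with AP-1 letters in its promoter. The entry at chr13:59585083-59585332 on the plus strand held them 216 bases before the start, in capitals as read on the opposite strand.
Naa35: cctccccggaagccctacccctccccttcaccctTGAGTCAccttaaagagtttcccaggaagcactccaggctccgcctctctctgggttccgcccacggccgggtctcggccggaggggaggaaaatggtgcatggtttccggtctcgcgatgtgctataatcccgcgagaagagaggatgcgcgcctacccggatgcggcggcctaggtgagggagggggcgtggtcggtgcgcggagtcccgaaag
A second Naa35 start in the table held the same letters 248 bases before it. AI506816, Fam104a and Tspan5 held none of the 7 motifs.

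How far membership depends on 1 replicate was described by applying the rule to 2 replicates at a time. Those 2 are among the 3 that chose the genes, so that being kept is partly built in. Hmox1, Sprr2b, Tspan5 and Gm24447 were kept whichever replicate was left out. Slc48a1, AI506816, Adm and Rn7sk were kept in 2 of the 3 cases, and Fam104a, Gm12537, Naa35 and Gm5210 in 1. With TMM-scaled totals 6 genes were lost, namely Rn7sk and the 5 genes whose highest day was Day01. Without replicate 1, 2 or 3 the rule took 17, 9 and 18 genes. In the replicate left out, 5, 5 and 7 of them passed both folds. Of all genes at the level threshold in the replicates used, 1.56%, 1.89% and 1.32% did.

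The thresholds cut through a continuous range. At the level threshold Rn7sk (106 CPM), Gm5210 (107) and Gm24447 (126) lay just inside, and Gm26315, another 7SK copy (95.1), Gm10284, another Gapdh copy (90.7), and Tubb6 (87.6) just outside. For the fold over Day00, Naa35 (1.801), Slc48a1 (1.81) and Gm5210 (2.03) lay inside, and Mpp1 (1.64), Gm2308 (1.59) and Mdm2 (1.59) outside. For the late fold, Gm12537 (1.81), Fam104a (1.86) and Naa35 (1.91) lay inside, and Gclm (1.61), Hspb8 (1.60) and Pphln1 (1.53) outside.

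None of the 12 was in any of 19 lists of pathways written from labels and textbook knowledge. At 100 CPM or more, p53 targets were higher over days 1 to 3 than both on Day00 and late in 6 of 9 cases (66.7%), DNA replication genes in 3 of 5 (60%), nucleotide, polyamine and one-carbon synthesis genes in 4 of 8 (50%) and ribosome biogenesis genes in 2 of 15 (13.3%), beside 29.4% of all genes at that level. Immediate early genes were so in 1 of 4 cases, and glycolytic genes in 5 of 9 (55.6%), with a median of 1.03 times Day00. No sterol synthesis gene (0 of 2), chemokine or inflammation gene (0 of 2), interferon-stimulated gene (0 of 3), matrix protease or adhesion gene (0 of 9) or actin gene (0 of 17) was. The other 8 lists lay between 16.7% and 46.2%.

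On day 6 after transfection each of the 12 genes stood under its day 1 to 3 mean. That held in the pooled libraries of nt, of Mock and of all siRNAs. As the genes were taken for high values on those 3 days, nothing is read from it. Together they took 754 CPM in nt, 826 in Mock and 828 over the siRNAs, beside 958 on Day06 of the untransfected course. Mitochondrial transcripts took 241293 CPM in nt, 254525 in Mock and 236208 over the siRNAs, beside 163636 on Day06. Their part in these levels was not tested. Sprr2b was the lowest relative to its peak, at 10.1 CPM in nt (3 counts), 3.79 CPM in Mock (1 count) and 16.4 CPM over the siRNAs, or 5.74%, 2.16% and 9.36% of its day 1 to 3 mean. Hmox1 stood at 164 CPM in nt and 314 CPM in Mock, 26.7% and 51.1% of its peak. Gm12537 was the closest to its peak in nt, at 101 CPM or 76.6%, with 37.5% in Mock. Summed 7SK was at 144 CPM in nt, 129 in Mock and 184 over the siRNAs, against 86.7 CPM on Day06.

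**Figure D3:**
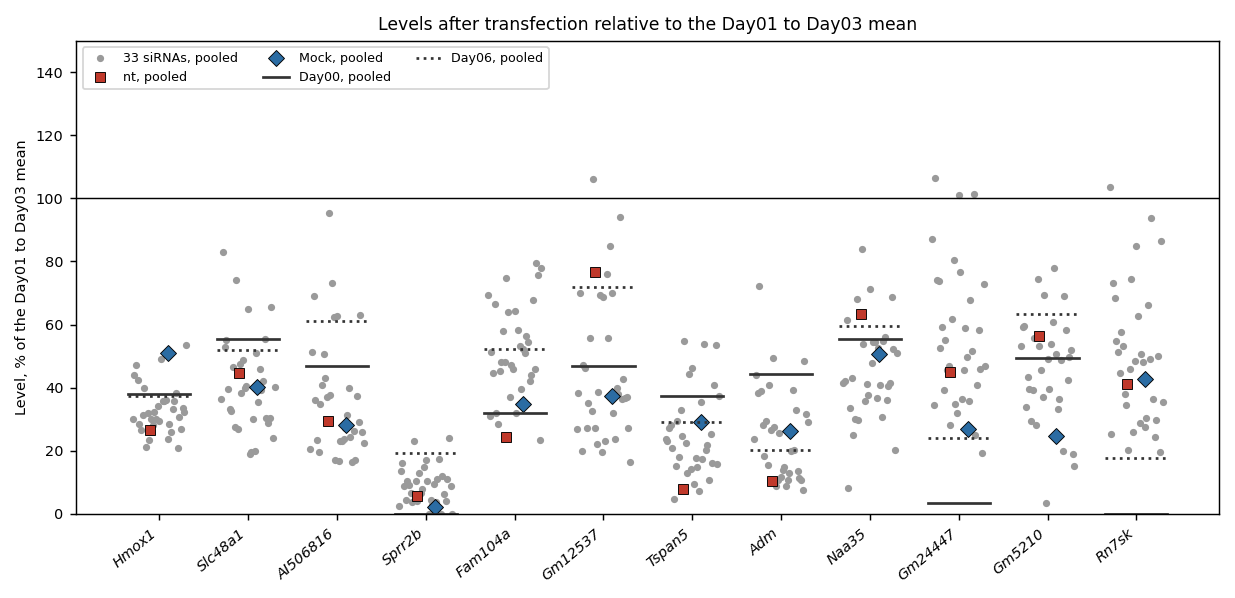
Pooled levels as a percentage of the mean of Day01 to Day03 (y axis; the line at 100 is that mean) for each gene: grey points are the 33 siRNAs, squares nt, diamonds Mock, and bars Day00 (solid) and Day06 (dotted). Of 396 points for siRNAs, 5 lie above 100, and the squares of Tspan5, Adm and Fam104a lie near the bottom of their columns while that of Gm12537 lies near the top.

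Over the 33 siRNAs, single genes ranged widely at these counts. By the mean of its libraries, Hmox1 was lowest in siTdrd3, whose libraries read 59.5, 184 and 134 CPM, and highest in sip53, at 340, 510 and 234 CPM. The libraries of that pair did not overlap; they are the extremes of 33 and were not tested against each other. Slc48a1 was lowest in siMyc, at 23.4, 0 and 82.5 CPM, and highest in siBard1, at 298, 161 and 190 CPM. AI506816 reached 445 CPM in 1 siHdac1 library, where the others read 204 and 96.3 CPM. Sprr2b had 0 counts in 34 of the 98 siRNA libraries and never passed 65.0 CPM, so that none reached its day 1 to 3 level. Pooled siRNA levels passed that level in 5 of 396 cases, 3 of them for Gm24447.

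Libraries of each siRNA, and of Mock, which received none, were then compared with nt. The contrasts themselves compare transfected libraries only, but the time course libraries that chose the genes entered the filter on low counts and the estimate of the spread. An edgeR quasi-likelihood test was fitted to all 127 libraries with the replicate as a block, over 3013 genes that passed the filter, the 12 among them. In a fit of the 106 transfected libraries alone, added after seeing the data, 8 of the 12 passed; Sprr2b, Tspan5, Naa35 and Gm5210 did not, and so were in the test only through the days on which they were chosen to be high. For those 4 genes the library values are given as a description, and no p is. At an adjusted p under 0.05, 8 of 396 pairs of a gene and an siRNA were called (2.02%), beside 2.57% of all pairs of a tested gene and an siRNA. Since 4 of the 12 were in the test by way of the choice, nothing is read from that share. All contrasts share the 3 nt libraries. Of the 33 siRNAs, 29 had none of the 12 called.

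siWdr5 (Wdr5 is a core subunit of histone H3K4 methyltransferases) had 3 of the 12 called, all higher, Tspan5 among them, beside 27.2% of all genes called in either direction and 12.2% called higher. As Tspan5 was in the test by way of the choice, the count to read is that of the fit of transfected libraries alone, 2 of 8 beside 29.8% of all genes. Fam104a read 123, 126 and 101 CPM in siWdr5 and 39.9, 49.9 and 27.9 CPM in nt. The groups did not overlap, and the log2 fold change was 1.5 (SE 0.51, edgeR adjusted p 0.0173). Tspan5 read 33.7, 101 and 75.9 CPM against 13.3, 0 and 14.0 CPM, again without overlap. With 3 counts in nt its ratio was 6.94 (interval for counting error only, 2.06 to 36.5). Adm read 56.1, 126 and 25.3 CPM against 0, 24.96 and 14.0 CPM; the lowest siWdr5 library barely cleared the highest of nt. Its log2 fold change was 2.08 (SE 0.78, edgeR adjusted p 0.0335).

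All 3 levels stayed under the day 1 to 3 means of these genes, 152, 130 and 130 CPM. Pooled Mock, which received no siRNA, lay between nt and siWdr5 for each, with Tspan5 libraries at 0 to 70.7 CPM and Adm libraries at 12.04 to 70.7 CPM. Against nt and Mock jointly, Fam104a was still called (log2 1.24, edgeR adjusted p 0.0127), while Adm had an adjusted p of 0.0762 and Tspan5 was not called. AI506816 and Sprr2b were called in siWdr5 in that fit, so that its count was again 3, beside 33.3% of all genes. Sprr2b was in the test by way of the choice. The nt level was low for these genes in the screen as a whole: pooled levels were above nt in 32 of 33 siRNAs for Fam104a, in 31 for Tspan5 and in 30 for Adm. Leaving out replicate 1, 2 or 3 gave Fam104a an adjusted p of 0.0697, 0.0804 and 0.123 and Adm 0.153, 0.242 and 0.0641. In the fit of transfected libraries alone Fam104a (edgeR adjusted p 0.0111) and Adm (0.0298) were called.

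siBrca1 (Brca1 is a DNA repair and ubiquitin ligase protein) had 3 of the 12 called, Naa35 among them, beside 4.22% of all genes, 2.49% higher and 1.73% lower. Naa35 was in the test by way of the choice, and the fit of transfected libraries alone called 1 of 8 beside 4.88% of all genes. Naa35 read 18.8, 0 and 10.9 CPM against 66.6, 87.4 and 83.8 CPM in nt, and the groups did not overlap. With 2 counts in siBrca1 its ratio was 7.73-fold in favour of nt (interval for counting error only, 1.92 to 67.5). Gm12537 was called lower, with 37.5, 21.01 and 21.9 CPM against 120, 99.8 and 90.8 CPM (log2 fold change -2.04, SE 0.65, edgeR adjusted p 0.0463). None of the alternatives run kept that call: its adjusted p was 0.0584 with RLE size factors and 0.0518 in the fit of transfected libraries alone.

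Adm was higher in siBrca1, at 18.8, 189 and 87.6 CPM, and here the groups overlapped (log2 fold change 2.55, SE 0.77, edgeR adjusted p 0.0345). Against nt and Mock jointly the adjusted p was 0.123 for Gm12537 and 0.0685 for Adm. In the fit of transfected libraries alone Adm was called (edgeR adjusted p 0.0364). Neither was called when a replicate was left out, with adjusted p of 0.156 to 0.295 for Gm12537 and 0.0921 to 0.301 for Adm.

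A further 2 calls, both of pseudogenes, were single. Gm12537 was lower in siIrx1 (2.02% of all genes called), at 18.3, 91.6 and 7.54 CPM, where 1 library overlapped nt (log2 fold change -1.90, SE 0.55, edgeR adjusted p 0.0373). Gm5210, counted as called in siKmt2e (1.29% of all genes called), had 1 count there, at 13.2, 0 and 0 CPM against 120, 37.4 and 41.9 CPM in nt. That is a ratio of 16.4 in favour of nt (interval for counting error only, 2.59 to 682), and it is given as a description. Pooled Gm12537 was above nt in 3 of 33 siRNAs, and its 5 Mock libraries read 20.1 to 94.2 CPM against 90.8 to 120 CPM in nt. Without replicate 1 or 3 its adjusted p in siIrx1 was 0.391 and 0.457, and without replicate 2, which holds the overlapping library, it was 0.0154 at a log2 fold change of -3.10. It was 0.154 against nt and Mock jointly, 0.129 without the replicate block, 0.0517 with RLE size factors and 0.0420 in the fit of transfected libraries alone.

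**Figure D4:**
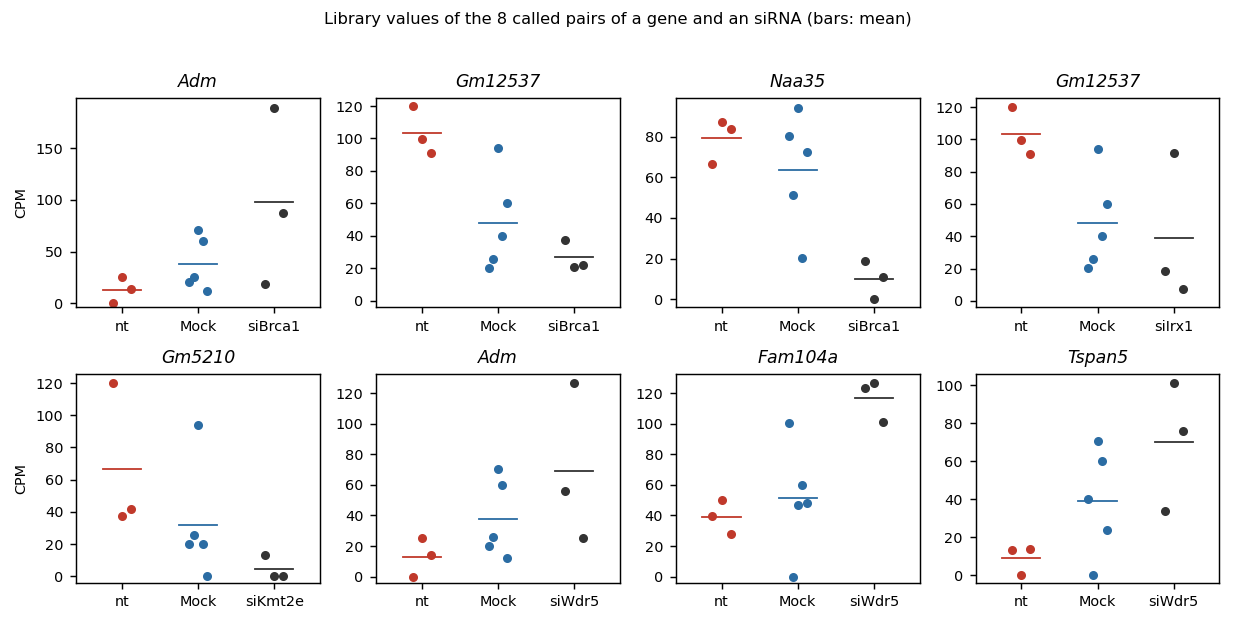
CPM of each library (points; bars are group means) of nt, Mock and the siRNA for the 8 pairs called against nt, 1 panel per pair, with 0 CPM shown on each y axis. Fam104a in siWdr5, at 101 to 126 CPM, lies above every nt library and barely above the highest Mock library; the panels of Tspan5, Naa35 and Gm5210 are descriptions, since those genes were in the test only through the time course.

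The other main comparisons called none of the 12. In siBard1 10.3% of all genes were called, in siPou5f1 5.77% and in siNcor1 4.45%. DESeq2 also called 0 of those of the 12 that it tested in each. Slc48a1 in siBard1 had a log2 fold change of 0.81 (SE 0.34, edgeR adjusted p 0.115). It was called higher there only against nt and Mock jointly, where 13.5% of all genes were called. In Mock against nt 1.56% of all genes and 0 of the 12 were called. Hmox1 came closest: 201, 283, 589, 241 and 301 CPM in Mock against 93.2, 212 and 175 CPM in nt, with 1 Mock library inside the nt range, a log2 fold change of 0.99 (SE 0.32, edgeR adjusted p 0.0789). A fit of the 8 nt and Mock libraries alone, in which Hmox1 was the only one of the 12 to pass the filter, called it (log2 1.01, edgeR adjusted p 0.048). That fit called 4.07% of all genes it tested, beside 1.56% in the main fit.

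Variation over nt, Mock and all siRNAs together was tested by an F test of 34 coefficients in the same fit. It called 6 of the 12 (Hmox1, Slc48a1, AI506816, Gm12537, Adm and Gm24447), beside 45.1% of all genes tested. In the fit of transfected libraries alone it called 4 of the 8 tested (not Adm, 0.0519, or Gm24447, 0.0505), beside 49.7% of all genes. The smallest adjusted p was that of Gm12537 (edgeR, 8.95e-06), followed by Slc48a1 (0.000134) and AI506816 (0.000145). Rn7sk had an edgeR adjusted p of 0.116.

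Across the 106 transfected libraries, after removal of replicate means, Pearson's r over the 66 pairs of the 12 genes lay between -0.232 and 0.666, and its median was 0.0153. It was highest between Gm24447 and Rn7sk (r 0.666, Spearman's rho 0.661), which share sequence, followed by the pseudogenes Gm12537 and Gm5210 (r 0.476, rho 0.470). Hmox1 and Slc48a1, which share the heme pathway and the course over days 1 to 3, had r -0.0230 and rho 0.0148. These libraries share pools, depth and control conditions, and the values are given as a description; at a few counts per library an r near 0 does not show that genes vary apart.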

How the data were processed

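RNA was counted by CEL-Seq2, which primes on poly(A) and tags each molecule with a UMI. The authors mapped reads to mm10 with Bowtie2, corrected UMIs with the CEL-Seq2 pipeline and matched them to GENCODE, and deposited counts per gene and library that are not normalized. The authors also deposited log2 values for 127 libraries, scaled with scater and scran. The 12 genes, the rule that chose them and the lists of genes were chosen with earlier results of these data known.

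Libraries with fewer than 10000 counts were left out, a Mock of replicate 3 (6403 counts) and siMtf1 of replicate 3 (7981), so that siMtf1 has 2 libraries. Levels are CPM (counts scaled to the library total), pooled over replicates unless library values are given. Named siRNAs were tested against nt with edgeR 4.0.16 (TMM factors, filterByExpr, quasi-likelihood F test, condition plus replicate) in R 4.3.3, over 3013 genes and 127 libraries with 83 residual degrees of freedom, and p-values were adjusted by Benjamini-Hochberg over all genes tested. These p-values measure the spread between replicate libraries, since the labels name no separate animals. The replicate number marks a shared sequenced pool: libraries of the same number had a median correlation of deviations from their condition mean of 0.0981, and those of different numbers -0.0685. Alternatives were DESeq2 1.42.0 and limma 3.58.1 on the deposited log2 values, RLE size factors, no low-count filter, no block, nt and Mock together as control, each replicate left out, and other thresholds of the rule. The alternatives for siIrx1 and siKmt2e, and the fit of transfected libraries alone, were added after seeing the data.

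Counting intervals are exact conditional 95% intervals of a ratio of counts, and bounds use a floor of 3 counts over the Day00 libraries. The genes described were all 12, those nearest each threshold, genes of the lists, and the members called in siWdr5, siBard1, siBrca1, siPou5f1, siNcor1 and Mock; the calls in siIrx1 and siKmt2e, and the extreme siRNAs of a gene, were named after their values were seen. Coordinates are GRCm38. Promoters are from RefSeq, and 3′ ends and 7SK transcripts from GENCODE annotation of that build, which is a later release than the one used for counting. Tables of the study's own comparisons were not used here.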

Additional observations from a re-analysis of the deposited data

Results flagged for a closer look

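In the 5 Mock libraries, 1 library stood apart from the rest by Dixon's ratio (its gap to the nearest library over the whole range) for 3 of the 12 genes. Chance marks about 1 in 20 groups of normally distributed values in this way, a rate that does not carry over to counts near 0. Hmox1 had a ratio of 0.743, with 589 CPM in 1 library and 201 to 301 CPM in the other 4. Sprr2b had a ratio of 1, from 1 library at 20.1 CPM beside 4 at 0. That level is 1 count, and a single count beside zeros gives a ratio of 1 in every case. Gm5210 had a ratio of 0.727, with 94.2 CPM in 1 library and 0 to 25.7 CPM in the others. The causes were not tested.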

How the results depend on the processing

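The number of genes taken by the rule was 12, and 11 with replicates weighted equally. It was 6 with TMM-scaled totals, 30 at a fold of 1.5, 6 at a fold of 2.2, 45 at a level of 50 CPM and 3 at the stricter level tried, and 9 to 18 when a replicate was left out. The 3 genes called in siWdr5 were 0 without the low-count filter, 0 by limma on the deposited log2 values and 0 to 1 when a replicate was left out. They were 3 with nt and Mock as control, of which AI506816 and Sprr2b replaced Tspan5 and Adm. The share of all genes called in siWdr5 was 27.2% in the main fit, 1.28% without the filter and 1.47% by limma. It was 13.7% to 18% when a replicate was left out and 33.3% with nt and Mock as control. The 3 called in siBrca1 were 0 without the filter, 0 by limma, 0 by DESeq2, which tested 1 of the 12, 1 without the replicate block (Naa35), 1 with nt and Mock as control, 1 with transfected libraries alone (Adm), 2 with RLE size factors, and 0 to 0 when a replicate was left out. The share of all genes called in siBrca1 was 4.22% in the main fit, 0.123% without the filter, 0.36% by limma and 9.86% by DESeq2. It was 1.43% without the block, 4.08% with nt and Mock as control and 4.88% with transfected libraries alone. With RLE size factors it was 3.95%, and 1.18% to 1.42% when a replicate was left out. In siBard1 1 gene was called with nt and Mock as control (13.5% of all genes). In Mock 1 gene was called in the fit of nt and Mock alone (4.07% of all genes). The 6 genes that varied over the transfected conditions were 3 without the filter, 3 by limma, 2 without the replicate block, and 2 to 4 when a replicate was left out. Of all genes tested, 45.1% were called so in the main fit, 4% without the filter and 7.55% by limma. The share was 26% without the block and 27.4% to 28.8% when a replicate was left out. Since these shares moved too, the lower counts are not read as a result about the 12. Dropping the block also ended the calls in siIrx1 (0.0996% of all genes called then) and siKmt2e (0.166%), and none in siWdr5 (18.6%). Fewer genes or libraries enter some of these fits, and no filter brings in 30778 genes; beyond that the causes were not tested. No called log2 fold change turned its sign under the alternatives run. At 1 to 4 counts in the lower group, as for 5 of the 8 calls, depth limits every fold.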
